A study of Mus musculus with 6 samples.

Results

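Chromatin association was examined at 10 collagen genes of mouse primary cardiac fibroblasts, taken by gene symbol: Col1a1, Col1a2, Col3a1, Col5a1, Col5a2, Col5a3 and Col11a1, which encode chains of fibril-forming collagens, and Col6a1, Col6a2 and Col6a3, which encode the chains of collagen VI, a beaded-filament collagen of the pericellular matrix. All 10 genes had at least 1 region in the deposited tables, and their regions made up 117 of the 456310 table entries. The data were 6 CUT&Tag libraries, in which an antibody directs a transposase to chromatin so that reads pile up around the antibody's target. The T set and the S set, named after the last letter of the sample titles, held 3 libraries each. The treatments are labelled NC, TGF-b, and either TGF-b+SiTAZ (T set) or TGF-b+SiSRF (S set), with 1 library for each. The study profiled TAZ, a transcriptional coactivator that acts through TEAD factors, and SRF, a factor that binds the CArG box. The labels do not name the antibody of any library, and the assignment of T to TAZ and of S to SRF was inferred from the titles alone. The siRNA carries the name of TAZ or SRF in the labels but is directed at Piezo2 in the study's account, and chromatin reads could not settle its target. The series design text speaks of Tet3 knockout with a Cre virus, but no sample label names Cre or Tet3. No label says what NC received beyond those letters. Without replicates no treatment could be tested, and every ratio describes 2 libraries.

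Fibril-forming collagens are triple helices that assemble into the cross-striated fibrils of the interstitial matrix. Type I, the product of Col1a1 and Col1a2, gives cardiac scar its stiffness, type III (Col3a1) is the other major fibre of the heart, and type V and type XI chains sit inside fibrils and control how they start and how thick they become. TGF-b is the cytokine best known for driving fibroblasts to a contractile, matrix-producing myofibroblast state, and raised collagen synthesis is a hallmark of that change.

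A region is a stretch called as a peak in at least 1 of the 2 libraries of a table. Its value is a read density, reads plus 1 per kb over a window of 2 kb, which the authors rescaled within each table. The whole reads behind each density were recovered and are given here for every library. The log2 ratio is that of the rescaled densities, later library over earlier, and its 95% Wilson interval covers counting error only. The interval carries the same rescaling but is built from the reads without the added 1, so at low counts it is not centred on the ratio. Because every window has the same length, reads can be set beside each other between genes. Windows of neighbouring regions overlap, so regions of a gene are not independent. Positions are those of the deposited tables and fit GRCm39 gene coordinates, the build named in the study's methods, although the submitters' processing notes name mm10.

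The members were thinly covered. Across the 59 regions of the T set for TGF-b against NC, reads per window ran from 0 to 54 under NC and from 0 to 43 under TGF-b, and 23 regions (39%) had 3 or fewer reads in a library, against 49.3% of all regions. Called regions numbered 127036 under NC, 53121 under TGF-b and 134584 under siRNA with TGF-b in the T set, and 27986, 25891 and 28738 in the S set. Among collagen regions, 50, 14 and 38 were called in the T libraries and 1, 3 and 3 in the S libraries. Of 7 cardiac fibroblast markers, 3 (Dcn, Ddr2 and Lum) and 2 (Dcn and Pdgfra) had a region within 1 kb of a start site in the T tables and 0 in either S table. Of 5 cardiomyocyte markers, 3 did in each T table, and 1 and 2 did in the S tables. Of 4 endothelial markers, 1 (Cdh5) did in the T table of TGF-b against NC and 0 in the others, and of 3 immune markers, 2 (Csf1r and Ptprc) and 1 (Adgre1) did in the T tables and 0 in the S tables. Association with chromatin is not expression, so these counts do not check the labelled cell type.

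The sequences just upstream of the start sites are shown for Col6a2, Col5a1, Col1a2 and Col5a3, whose starts carried a T region, and for Col3a1, which holds a TEAD motif without such a region. The RefSeq promoter table (GRCm38.p6) matched 8 of the 10 symbols, all but Col1a1 and Col5a2, in 9 windows, since Col6a2 has 2 start sites. Each line gives the 250 bases before the start, 5′ to 3′ on the gene's strand, with the MCAT motif of TEAD factors (CATTCC, searched on both strands) in capitals. These positions belong to GRCm38.p6 and were not converted to the build of the regions.
Col6a2, chr10:76623405-76623654, minus strand: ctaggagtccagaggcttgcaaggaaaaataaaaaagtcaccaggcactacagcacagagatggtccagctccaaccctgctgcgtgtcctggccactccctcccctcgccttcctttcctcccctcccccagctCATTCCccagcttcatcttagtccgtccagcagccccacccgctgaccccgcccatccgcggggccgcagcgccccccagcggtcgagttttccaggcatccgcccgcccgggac
Col3a1, chr1:45311288-45311537, plus strand: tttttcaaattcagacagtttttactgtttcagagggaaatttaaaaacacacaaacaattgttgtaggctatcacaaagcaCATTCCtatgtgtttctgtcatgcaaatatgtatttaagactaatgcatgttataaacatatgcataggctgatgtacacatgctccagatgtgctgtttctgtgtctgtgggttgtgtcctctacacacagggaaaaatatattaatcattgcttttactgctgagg
Col5a1, chr2:27886175-27886424, plus strand: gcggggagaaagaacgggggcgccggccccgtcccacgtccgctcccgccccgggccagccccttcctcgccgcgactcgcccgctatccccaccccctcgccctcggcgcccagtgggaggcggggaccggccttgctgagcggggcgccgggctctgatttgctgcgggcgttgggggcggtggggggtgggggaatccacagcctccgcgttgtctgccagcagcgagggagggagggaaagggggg
Col1a2, chr6:4505368-4505617, plus strand: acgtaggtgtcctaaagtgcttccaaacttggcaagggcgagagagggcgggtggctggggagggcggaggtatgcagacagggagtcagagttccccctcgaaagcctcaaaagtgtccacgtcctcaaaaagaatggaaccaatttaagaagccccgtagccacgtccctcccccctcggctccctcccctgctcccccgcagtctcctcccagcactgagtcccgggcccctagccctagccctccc
Col5a3, chr9:20815068-20815317, minus strand: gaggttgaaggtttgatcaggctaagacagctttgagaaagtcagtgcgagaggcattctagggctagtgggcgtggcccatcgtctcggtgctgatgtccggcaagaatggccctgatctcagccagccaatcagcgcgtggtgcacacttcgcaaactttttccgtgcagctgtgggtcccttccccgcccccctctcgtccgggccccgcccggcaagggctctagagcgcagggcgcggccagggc

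The MCAT motif lay 115 bases upstream of the Col6a2 start shown and 168 bases upstream of the Col3a1 start. It was found in 2 of the 9 member windows, against 14.7% of 32851 promoter windows of the same length. The other Col6a2 window holds no MCAT motif, and which Col6a2 start the T region lies at was not determined. The CArG box was found in 0 of the 9, against 1.63% of all windows. These are matches of letters and not binding sites. The base composition of the members differed widely, from 35.2% GC upstream of Col3a1 to 76.4% GC upstream of Col5a1, around a median of 52.4% over all promoters.

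The first comparison, TGF-b against NC in the T set, asked how T association at collagen genes stood after TGF-b. All 6 regions annotated as a promoter within 1 kb or a 5' UTR had a log2 ratio above 0, where 56.3% of all such regions did. Of the other 53 regions, 25 (47.2%) were at least 2-fold lower and 5 (9.43%) at least 2-fold higher, beside 44.0% and 16.9% of all regions away from starts. The same contrast stood in the whole table, where the median log2 ratio was 0.18 over start regions and -0.76 over the others, so it is not particular to collagens. In all, 7 of 59 collagen regions (11.9%) were at least 2-fold higher, beside 17.3% of all 170890 regions, and 25 (42.4%) were at least 2-fold lower, beside 42.1%. The median log2 ratio was -0.60 over collagen regions and -0.65 over all regions, so the members as a whole stood where the table stood. Relative to that table-wide shift their median was 0.06, and with the table centred on its median 15 collagen regions were higher and 15 lower, beside 26.7% and 27.2% of all regions.

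Col1a1, which encodes the more abundant chain of type I collagen, had a T region over its 5' UTR at chr11:94827030-94827152 with 12 reads under NC, 24 under TGF-b and 6 under siRNA with TGF-b. The density was 6.36 under NC and 12.8 under TGF-b, a log2 ratio of 1.01 (0.08 to 2.04). The TGF-b library was the highest of the 3, and the region had been called as a peak under TGF-b and not under NC. Without the authors' rescaling the ratio was 0.94 (0.02 to 1.98), just within 2-fold.

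Col5a2, which encodes a chain of the fibril-nucleating type V collagen, had the largest ratio among the start regions. Its 5' UTR region at chr1:45542207-45542350 held 3 reads under NC, 18 under TGF-b and 6 under siRNA with TGF-b. The log2 ratio of TGF-b over NC was 2.38 (1.05 to 4.38), with densities of 1.91 and 9.94. NC was at the floor of counting in this window, which makes the interval wide, and this region too had been called under TGF-b and not under NC. Regions called in that way entered through the library where they are high, and over all 43854 of them 59.7% were at least 2-fold higher, with a median of 1.41.

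Col5a1, which encodes the most widespread type V chain, had 19 reads under NC and 33 under TGF-b at its promoter (chr2:27776274-27776433, 84 bases upstream of a start site), a log2 ratio of 0.80 (0.02 to 1.63). Without the rescaling it was 0.77 (-0.01 to 1.60), which includes 0. The siRNA table held no region there. The region was called as a peak in NC only, although the TGF-b library had more reads in the window.

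At the other 3 starts the interval included 0. The Col6a2 promoter (chr10:76459161-76459441) had 15 reads under NC and 21 under TGF-b, a log2 ratio of 0.52 (-0.39 to 1.49). The Col1a2 promoter (chr6:4505598-4505675), of the second type I chain, had 15 and 17 reads, 0.24 (-0.73 to 1.23). The Col5a3 promoter (chr9:20726487-20726653), of a type V chain with a narrower tissue range, had 16 and 18 reads, 0.22 (-0.72 to 1.19). A difference at these starts was not detectable at this depth. At the 2-fold level, 2 of the 6 start regions, the 2 called under TGF-b only, were higher and 0 lower, beside 22.8% and 17.2% of all 12017 regions of that annotation. Their median log2 ratio was 0.66, and that of all such regions was 0.18. Setting start regions apart was decided after the values had been seen. Col3a1, Col6a1, Col6a3 and Col11a1 had no region of this annotation in this table.

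**Figure D1:**
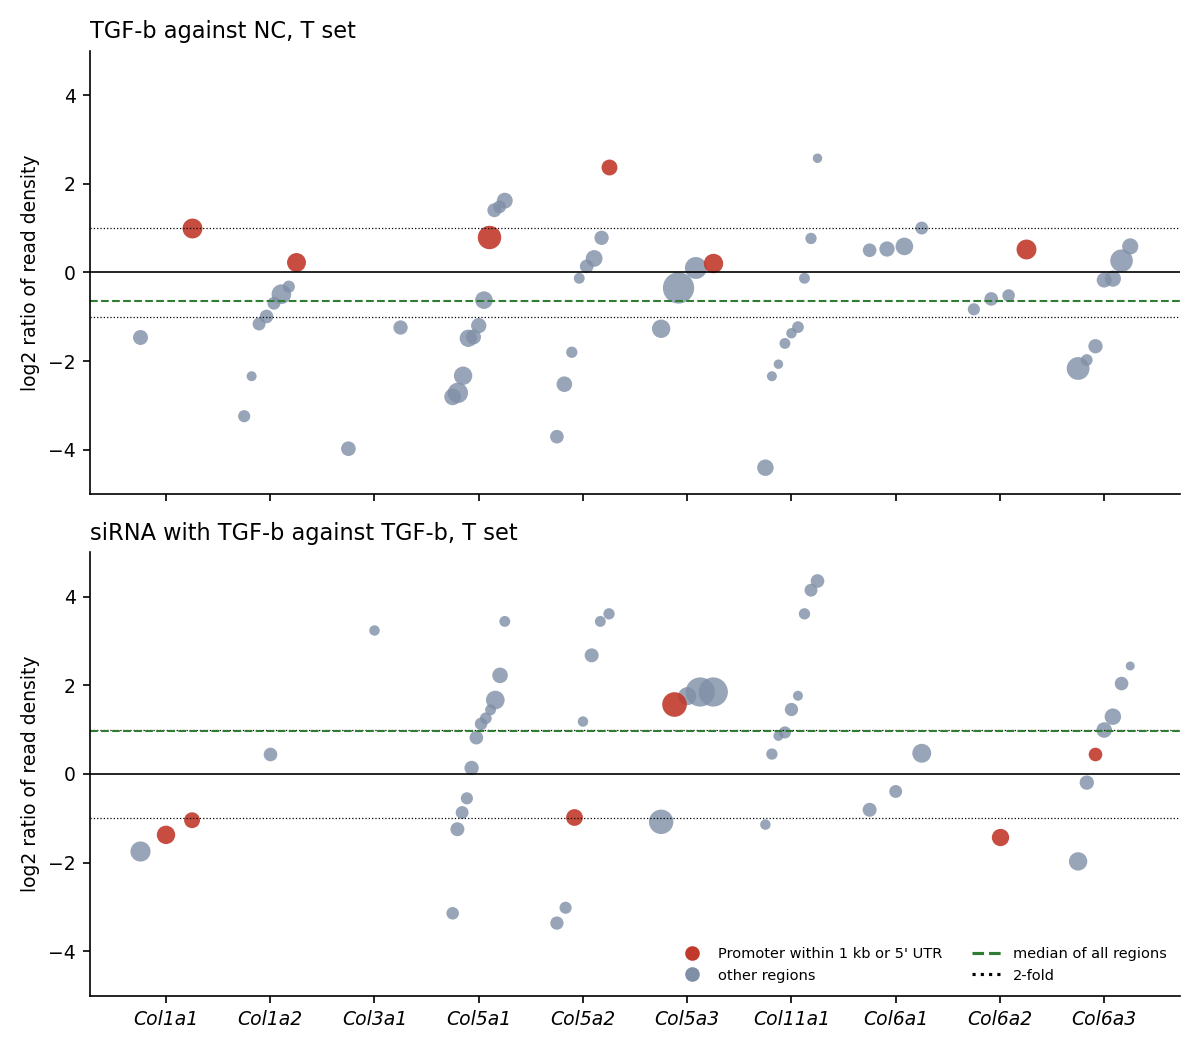
Log2 ratio of rescaled read density (vertical axis) for every region of the 10 collagen genes (horizontal axis) in the T set, TGF-b over NC above and siRNA with TGF-b over TGF-b below; each point is a region, its area grows with the recovered reads of both libraries, red marks promoters within 1 kb and 5' UTRs, the dashed line is the median of all regions of the table (-0.65 above, 0.97 below) and dotted lines mark 2-fold. All 6 red points of the upper panel lie above 0, and 4 of the 6 in the lower panel lie below 0.

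Inside the genes the largest losses were in introns. Col5a1 had 11 T regions, 6 of them at least 2-fold lower and 3 at least 2-fold higher. Its introns 28, 29 and 33 went from 34 to 4 reads, a log2 ratio of -2.72 (-4.43 to -1.56), from 26 to 4 reads, -2.33 (-4.05 to -1.14), and from 22 to 2 reads, -2.80 (-5.26 to -1.39). These 3 windows lay 98.8, 100.6 and 109.4 kb from the outermost start. Outside the gene, a region 3.18 kb upstream of that start, in an exon of a different annotated gene and assigned to Col5a1 by its nearest start, went from 20 to 6 reads, -1.48 (-2.91 to -0.36). Intron 44 stood the other way, with 5 reads under NC and 16 under TGF-b, 1.62 (0.40 to 3.19), and intron 25 had 4 and 11 reads, 1.40 (0.03 to 3.17), or 1.26 (-0.11 to 3.03) without the rescaling. Gain and loss thus lay within the same gene body, as the map of reads along Col5a1 shows.

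**Figure D2:**
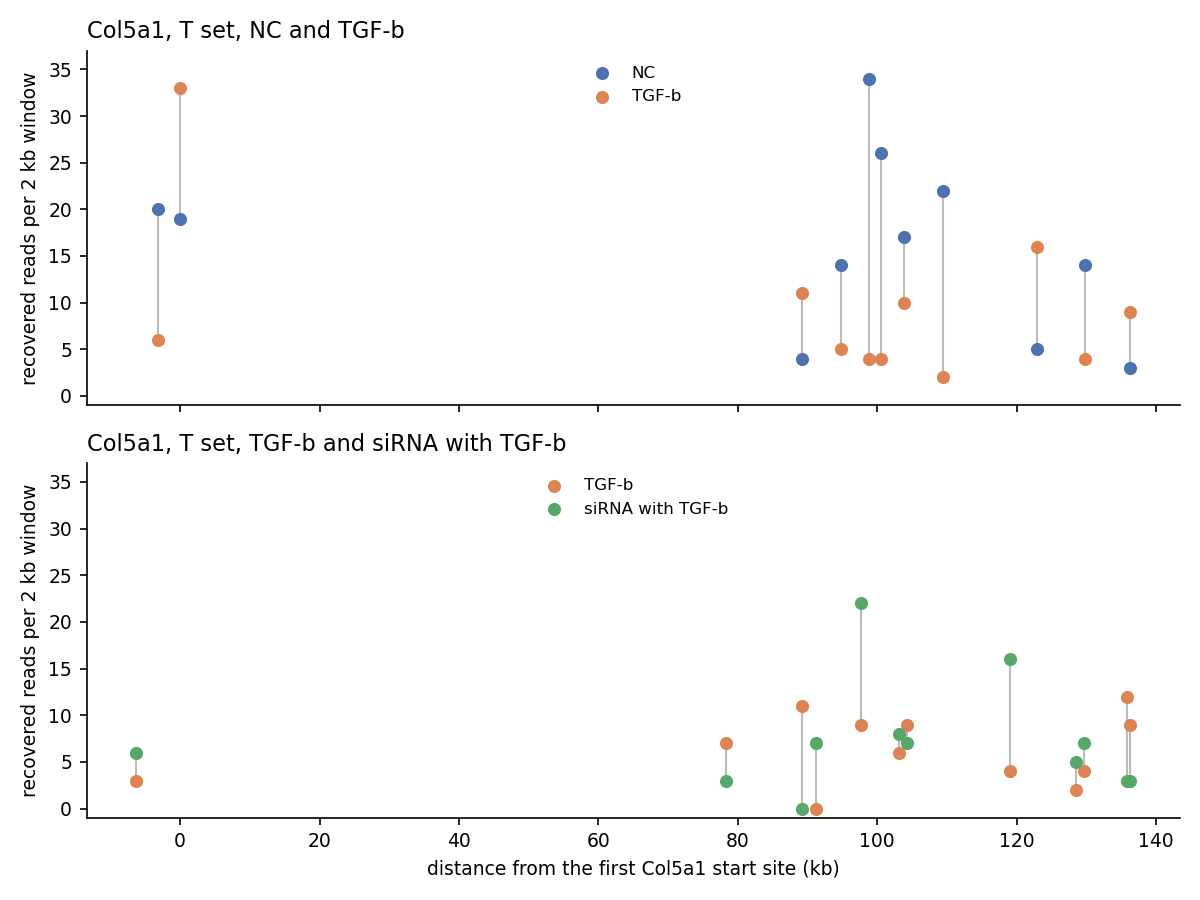
Recovered reads per 2 kb window (vertical axis) at every T region of Col5a1 against its distance from the first start site in kb (horizontal axis), NC and TGF-b above, TGF-b and siRNA with TGF-b below; grey lines join the 2 libraries of a region. The window at the start rose from 19 to 33 reads under TGF-b while windows near 100 kb fell from 34 and 26 reads to 4.

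Col6a3, which encodes the longest collagen VI chain, had its largest loss in intron 10, from 41 to 8 reads, a log2 ratio of -2.17 (-3.37 to -1.23), while a region in intron 1 held 22 and 26 reads, 0.27 (-0.53 to 1.08). Nearer its start, 2.76 kb inside the gene, Col6a3 had 9 and 13 reads, 0.59 (-0.56 to 1.82). Intron 8 of Col5a3 went from 22 to 8 reads, -1.27 (-2.51 to -0.24), and intron 6 of Col5a2 from 18 to 2 reads, -2.52 (-4.98 to -1.07). The densest collagen region of the table, in Col5a3 intron 1, held 54 reads under NC and 43 under TGF-b, -0.35 (-0.93 to 0.22). Exon 36 of Col1a1 had 14 and 4 reads, -1.45 (-3.21 to -0.15), where the 5' UTR, the only other Col1a1 region of this table, was higher. The exon region had been called in NC only and the 5' UTR region in TGF-b only. Each thus entered through the library where it is high, and nothing is read from the contrast.

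In several introns no TGF-b read was recovered, and the fold there is a lower bound with the empty library set to 3 reads, which leaves out the counting error of the other library. Col11a1, which encodes a type XI chain, went from 23 reads to 0 in intron 36, at least 5.52-fold lower. Col3a1 went from 17 to 0 in intron 1, at least 4.11-fold lower, and its other region, in the same intron, went from 12 to 4 reads, -1.24 (-3.004 to 0.11). Intron 17 of Col5a2 went from 14 to 0, at least 3.40-fold lower, and intron 22 of Col1a2 from 10 to 0, at least 2.47-fold lower. Col1a2 had 8 regions, called in NC only, of which 7 were below 0, beside 102269 of all 117769 regions called in NC only. Its densest region, in intron 3, held 21 and 14 reads, -0.49 (-1.48 to 0.44).

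The collagen VI genes were mixed, in a table where 56480 of 170890 regions were above 0 and 114410 below 0. The 4 regions of Col6a1, of which 2 had been called under TGF-b only, were all above 0, but the interval of each included 0. Col6a1 had log2 ratios from 0.50 to 1.002 and 4 to 11 reads under NC against 8 to 16 under TGF-b. Its start-proximal region, in intron 2, held 8 and 11 reads, 0.53 (-0.70 to 1.85), and the densest, in intron 26, held 11 and 16, 0.59 (-0.46 to 1.71). Of the 4 Col6a2 regions, the promoter was above 0 and 3 were below 0, with none past 2-fold. Of the 7 Col6a3 regions, 5 were below 0 and 3 at least 2-fold lower, each of those 3 with its interval below 0. Across all 59 regions the interval lay above 0 in 6 (10.2%), below 0 in 17 (28.8%) and included 0 in 36, beside 14.8% above and 31.1% below over all regions. Of the 59, 45 (76.3%) had been called in NC only, against 68.9% of all regions, and 9 (15.3%) in TGF-b only, against 25.7%. The ratios moved with these classes. The NC-only regions had a median log2 ratio of -1.23 among collagens and -1.27 among all regions. The 9 TGF-b-only collagen regions were all above 0, as were 36347 of all 43854 such regions. Their median was 0.78, beside 1.41 over all such regions, and the part of peak calling in the losses and gains was not tested.

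The second comparison, siRNA with TGF-b against TGF-b in the T set, held 49 collagen regions. Of these, 23 (46.9%) were at least 2-fold higher, beside 49.7% of all 180118 regions, and 11 (22.4%) at least 2-fold lower, beside 16.2%. The collagen median was 0.94 and that of all regions 0.97, so the middle of the list stood where the table stood, and relative to it the collagen median was -0.03. Centred in this way, 11 collagen regions were higher and 17 lower, beside 29.2% and 28.9% of all regions. Without the authors' rescaling the medians were 0.49 and 0.51, with 19 collagen regions (beside 41.6% of all) higher and 15 (beside 21.6%) lower. Of the 49, 35 (71.4%) had been called in the siRNA library only, beside 70.5% of all regions, and 22 (44.9%) had 3 or fewer reads in a library, beside 57.9%.

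The start regions ran below the table here. Of 6, 2 were above 0, beside 46.1% of all 11583 such regions, 1 was at least 2-fold higher, beside 21.1%, and 3 at least 2-fold lower, beside 23.6%. Their median was -1.01, and that of all such regions was -0.12. The Col1a1 5' UTR went from 24 to 6 reads, a log2 ratio of -1.37 (-2.79 to -0.29), and the Col6a2 promoter from 21 to 5 reads, -1.41 (-2.97 to -0.25). A region in Col1a1 intron 1, 327 bases inside the gene, went from 31 to 6 reads, -1.73 (-3.13 to -0.68), although it had been called in the siRNA library only. Its window overlaps that of the 5' UTR, so the Col1a1 regions share reads. A further Col1a1 region near an internal start site had 16 and 5 reads, -1.04 (-2.61 to 0.17), and the Col5a2 5' UTR had 18 and 6 reads, -0.98 (-2.41 to 0.17). For the last pair of regions the interval included 0, but without the rescaling it did not, with -1.50 (-3.07 to -0.28) and -1.44 (-2.87 to -0.30). An internal start of Col6a3 had 7 reads in either library, 0.46 (-0.99 to 1.91).

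The Col5a3 promoter went the opposite way. It held 16 reads under NC, 18 under TGF-b and 40 under siRNA with TGF-b, a log2 ratio over TGF-b of 1.58 (0.83 to 2.42). Col5a3 intron 27 held 22, 23 and 61 reads, 1.85 (1.201 to 2.57), the highest count of any collagen window, and exon 7 had 8 and 21 reads, 1.75 (0.71 to 3.001). Intron 27 carried 2 regions with the same reads, whose windows overlap. In the same gene, intron 1 held 54, 43 and 14 reads, -1.08 (-2.00 to -0.29). The siRNA library was above TGF-b at 3 places of Col5a3 and below it at the fourth.

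**Figure D3:**
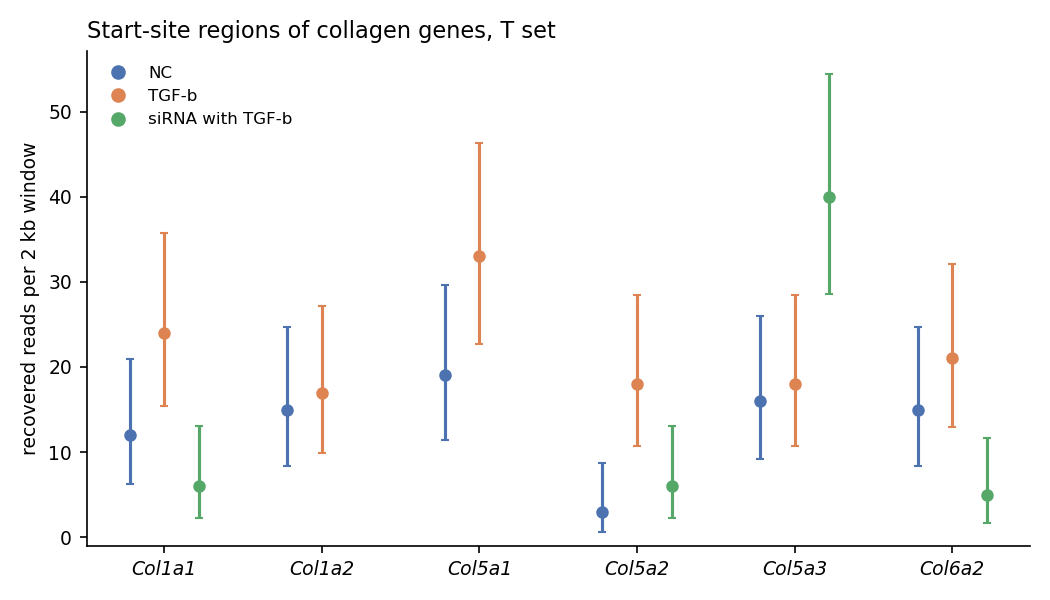
Recovered reads per 2 kb window (vertical axis) at the 6 collagen start regions of the TGF-b against NC table of the T set, by library; points are counts and bars their exact 95% Poisson intervals, which cover counting error only, and the reads are not rescaled. Col1a2 and Col5a1 had no region at the start in the siRNA table. Col1a1, Col5a2 and Col6a2 are highest under TGF-b (24, 18 and 21 reads) and Col5a3 is highest under siRNA (40 reads).

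Among the remaining regions of at least 20 reads, Col5a1 intron 27 went from 9 to 22 reads, a log2 ratio of 1.67 (0.66 to 2.85), and intron 42 from 4 to 16, 2.22 (0.95 to 3.97). Exon 11 of Col6a3 had 8 and 15 reads, 1.29 (0.17 to 2.57), or 0.83 (-0.30 to 2.11) without the rescaling, whereas its intron 1 region went from 26 to 4 reads, -1.97 (-3.70 to -0.78). That window thus held 22, 26 and 4 reads over the 3 libraries. Col11a1 had its densest values where the TGF-b library was empty, with 0 and 12 reads, at least 4.45-fold higher, in a 3' UTR region and 0 and 14 reads, at least 5.14-fold higher, in a neighbouring exon region, whose windows overlap. The only Col3a1 region, in an exon, had 0 and 6 reads, at least 2.39-fold higher. The only Col1a2 region, in intron 28, had 7 reads in either library, 0.46 (-0.99 to 1.91). The 3 Col6a1 regions ranged from -0.81 to 0.47, with every interval including 0. The intron 2 region had 11 and 4 reads, -0.81 (-2.58 to 0.57), and the densest, in intron 26, had 16 reads in either library, 0.47 (-0.51 to 1.45). By internal start sites, a Col5a1 exon had 12 and 3 reads, -1.25 (-3.27 to 0.18), and Col11a1 intron 46 had 4 and 6 reads, 0.94 (-0.69 to 2.76). Col11a1 intron 42 had 4 and 9 reads, 1.45 (0.01 to 3.24), and without the rescaling its interval, from -0.44 to 2.78, included 0.

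Across the 3 libraries of the T set, 17 collagen regions were present in both tables. The comparisons share the TGF-b library, so their ratios are not independent. Of the 17, 10 were above 0 and then below 0, 4 above 0 both times, 2 below and then above, and 1 below both times. Above and then below stood in 54.9% of all matched regions. Of the 17, 14 had been called in the shared TGF-b library, so high values there are in part how they entered both tables. At the 2-fold level, 2 (11.8%) were at least 2-fold higher and then at least 2-fold lower, beside 27.3% of the 58623 regions present in both tables. With both tables centred on their medians the count was 8 (47.1%), beside 48.7% of all matched regions. The 2 were the Col1a1 5' UTR, with 12, 24 and 6 reads, and Col5a1 intron 25, with 4, 11 and 0 reads. Without the authors' rescaling the count was 3, namely Col5a1 introns 25 and 61 and the Col5a2 5' UTR. The Col1a1 5' UTR was then not among them, at 0.94 under TGF-b. Close to the 2-fold limit, the Col5a2 5' UTR (3, 18 and 6 reads) had 2.38 and -0.98. At the Col6a2 promoter (15, 21 and 5 reads) the values were 0.52 and -1.41. The Col6a3 intron 10 region, with 41, 8 and 12 reads, was lower under TGF-b and 0.99 (-0.21 to 2.30) under the siRNA. Intron 12 of Col5a2 held 11, 13 and 0 reads and intron 3 held 6, 10 and 0, so their siRNA values were at least 2.55-fold and at least 2.01-fold lower.

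In the S set the members were nearly empty. For TGF-b against NC there were 4 collagen regions of 52723, and for the siRNA comparison 5 of 52579, in 6 places of 4 genes, and none was a promoter within 1 kb or a 5' UTR. Of the 4, 2 were at least 2-fold higher, beside 17.4% of all regions, and 1 at least 2-fold lower, beside 26.7%. Without the authors' rescaling 3 were higher and 0 lower, beside 32.7% and 15.3%. Of the 5, 0 were at least 2-fold higher, beside 15.1%, and 2 at least 2-fold lower, beside 27.8%. With so few regions these counts are a listing. The collagen medians were 1.199 and -0.22, and the all-region medians -0.20 and -0.21.

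Col5a1 carried the S region with the most reads under TGF-b, at chr2:27905741-27906023, annotated as a promoter 1 to 2 kb upstream of an internal start and 129 kb into the gene. It held 4 reads under NC, 21 under TGF-b and 6 under siRNA with TGF-b. The log2 ratio was 1.56 (0.34 to 3.29) for TGF-b over NC and -1.56 (-2.98 to -0.45) for the siRNA over TGF-b. The region had been called under TGF-b and not under NC, and all S regions called in that way had a median of 0.70 with 36.5% at least 2-fold higher. Without the authors' rescaling, which in this table lowered all ratios (the all-region median was 0.36 before it and -0.20 after it), the collagen median under TGF-b was 1.78.

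An S region just downstream of the annotated Col6a3 end held 5, 15 and 12 reads. Its log2 ratios were 0.84 (-0.40 to 2.41) under TGF-b, or 1.42 (0.18 to 2.99) without the rescaling, and -0.22 (-1.31 to 0.83) under the siRNA. A Col11a1 exon held 0, 7 and 2 reads, at least 1.32-fold higher under TGF-b and then -1.27 (-3.74 to 0.42). Col1a1 intron 31, with 11 reads under NC and 6 under TGF-b, had -1.36 (-2.84 to -0.07), but without the authors' rescaling -0.78 (-2.26 to 0.51), which is within 2-fold and includes 0. The siRNA table added that region upstream of Col5a1, which lies in an exon of a different gene, with 8 and 11 reads, 0.52 (-0.71 to 1.83), and a Col11a1 exon with 4 and 5 reads, 0.40 (-1.32 to 2.24). The 3 S regions present in both tables were above 0 and then below 0, as were 70.5% of all matched S regions, but each had been called under TGF-b and not under NC, so nothing is read from that order. Past 2-fold both ways were 2 of the 3, Col5a1 and Col11a1, beside 22.1% of 26931 regions, and the count was 1 once libraries at or under the floor of 3 reads were raised to it.

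**Figure D4:**
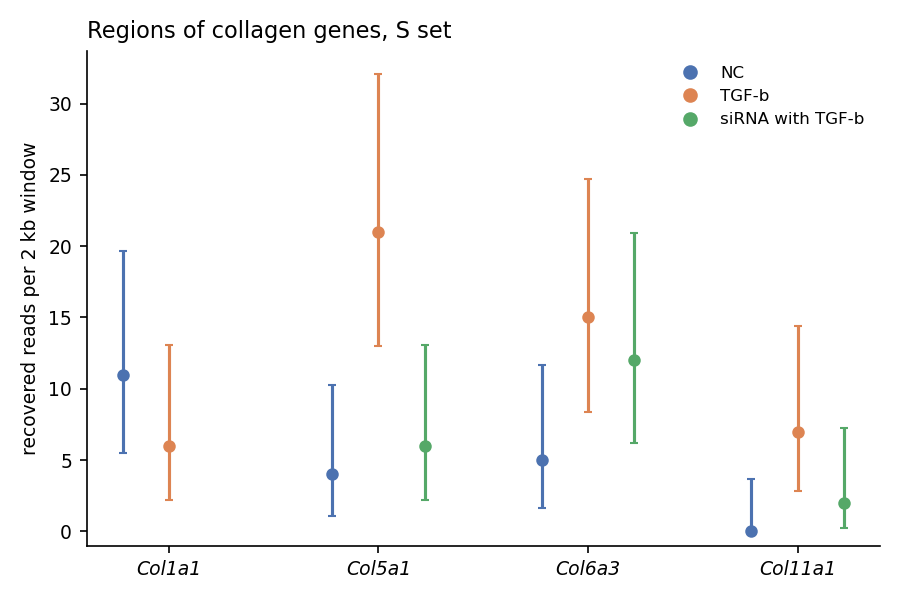
Recovered reads per 2 kb window (vertical axis) at the 4 collagen regions of the TGF-b against NC table of the S set, by library; points are counts, bars exact 95% Poisson intervals for counting error only, and reads are not rescaled. Col5a1 had 4, 21 and 6 reads. Col1a1 had 11 and 6 reads and no region in the siRNA table.

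The sets met in few places. The Col5a1 S region overlapped a T region (chr2:27905976-27906049) by 47 bp in the siRNA comparison. There S went from 21 to 6 reads and T from 4 to 7 reads. The S log2 ratio was -1.56 (-2.98 to -0.45) and the T log2 ratio 1.13 (-0.42 to 2.94). Under TGF-b, the nearest T region lay 166 bp away and went from 14 to 4 reads, -1.45 (-3.21 to -0.15), where S went from 4 to 21. At Col1a1, S intron 31 (11 and 6 reads) and T exon 36 (14 and 4 reads) were 1263 bp apart, with fewer reads under TGF-b in either, and the S value rests on the rescaling. At Col11a1, the S exon had 7 and 2 reads under the siRNA and a T region 380 bp away had 0 and 14. The tables of the sets were rescaled separately, so these values stand side by side only.

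Collagen chains must be hydroxylated, folded and trimmed before they form fibrils. Among 14 genes of procollagen modification and processing, 13 had T regions. Under TGF-b, 9 of 55 regions (16.4%) were at least 2-fold higher and 20 (36.4%) at least 2-fold lower, beside 17.3% and 42.1% of all regions, and their median of -0.72 was near that of the table (-0.65). Under the siRNA, 23 of 56 (41.1%) were higher and 8 (14.3%) lower, beside 49.7% and 16.2%, with a median of 0.71 against 0.97. In the S set, 4 of 10 regions were higher and 2 lower under TGF-b (median 0.73), beside 17.4% and 26.7%, and 2 of 11 were higher and 2 lower under the siRNA (median 0.30), beside 15.1% and 27.8%. P4ha1, a catalytic subunit of the prolyl 4-hydroxylase that stabilises the collagen helix, was past 2-fold in both sets at its promoter (chr10:59158929-59159254). The T reads were 15 under NC, 66 under TGF-b and 14 under siRNA with TGF-b, which gave log2 ratios of 2.08 (1.35 to 2.95) under TGF-b and -1.68 (-2.58 to -0.94) under the siRNA. The S reads at the same promoter were 6, 26 and 21, with 1.38 (0.31 to 2.79) and -0.25 (-1.08 to 0.56).

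At other start sites of these genes the values ran both ways. The promoter of Pcolce, an enhancer of procollagen C-proteinase, went from 60 to 18 T reads under TGF-b, -1.68 (-2.48 to -0.98). The 5' UTR of Colgalt1, which glycosylates collagen, went from 18 to 44 T reads under TGF-b, 1.26 (0.53 to 2.09), and from 14 to 40 S reads under the siRNA, 1.499 (0.70 to 2.43). A region 1.05 kb upstream of a start of Plod2, a lysyl hydroxylase, went from 4 to 24, 2.43 (1.23 to 4.16). The promoter of P4hb, the other prolyl hydroxylase subunit, went from 69 to 21 T reads under the siRNA, -1.19 (-1.93 to -0.54). In Bmp1, the C-proteinase itself, 4 intronic or exonic regions near an internal start held 34 to 38 reads under NC and 2 to 5 under TGF-b. The windows of neighbouring regions among these 4 overlap, and 2 of them have the same reads, so they are not separate losses. Adamts14, a procollagen N-proteinase, went from 32 to 12 and from 32 to 6 T reads under TGF-b in 2 regions by its start. P4ha2, another prolyl hydroxylase subunit, was mixed under the siRNA, with 50 and 13 T reads in intron 5, -1.39 (-2.34 to -0.60), and 19 and 30 at a promoter, 1.10 (0.31 to 1.95), and 2 further regions went from 14 to 24 and from 10 to 18 reads. In the S set a P4ha2 intron had 6 and 20 reads under TGF-b, 1.01 (-0.11 to 2.44). An intron of Plod3, a further lysyl hydroxylase, went from 9 to 32 T reads under the siRNA, 2.19 (1.25 to 3.34), and a second Pcolce promoter region from 21 to 1 under TGF-b, -3.30 (-6.79 to -1.69).

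Among 7 other fibrillar and fibril-associated collagens, 12 of 70 T regions (17.1%) were at least 2-fold higher and 26 (37.1%) at least 2-fold lower under TGF-b, beside 17.3% and 42.1% of all regions, with a median of -0.67 against -0.65. Under the siRNA, 24 of 66 (36.4%) were higher and 13 (19.7%) lower, beside 49.7% and 16.2%, with a median of 0.45 against 0.97. In the S set, 1 of 10 was higher and 4 lower under TGF-b (median -0.60), beside 17.4%, 26.7% and a median of -0.20 over all regions. Under the siRNA, 2 of 10 were higher and 3 lower (median -0.01), beside 15.1%, 27.8% and -0.21. The promoter of Col12a1, a collagen that decorates type I fibrils, went from 53 to 26 T reads under TGF-b, -1.004 (-1.70 to -0.36), the opposite direction to the Col1a1 start. An intron of Col11a2, the other type XI chain gene, went from 3 to 21 reads, 2.58 (1.28 to 4.58). In intron 2 of Col16a1, a fibril-associated collagen, 2 regions with overlapping windows had 21 and 34 and 20 and 38 T reads under the siRNA, 1.14 (0.39 to 1.94) and 1.37 (0.63 to 2.17).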

How the data were processed

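The study's methods state mapping to GRCm39 with Bowtie2 and peak calling with a program spelled Masc2, without versions. The submitters' processing notes name BWA 0.7.12 and mm10 instead, and gene positions in the tables fit GRCm39. The labels give the molecule as total RNA, although the series is of genome binding. The authors deposited 4 tables, each over the merged peaks of 2 libraries of a set, with a normalized read density per library, which is a signal rescaled by the authors along a straight line in mean log2 density. The tables also hold the authors' own log2 ratios, p-values and related columns, which were not used.

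Symbols were matched exactly. Ratios were computed from the 2 densities. After the line was undone, 99.97% to 99.99% of regions held a whole number of reads (tolerance 0.1), at 0.5 density units per read, as for 2 kb windows. This was tested on simulated data. Wilson 95% intervals come from these reads, carry the line, and cover counting error only. Reads of 3 or fewer were the floor. Within a set, regions overlapping by 1 bp between tables were matched. With 1 library per treatment and set there was no test. The threshold was 2-fold. Library totals were not used here. The members and lists were chosen with earlier results of these data known. The text names all 10 members, with the start-proximal region and the densest region per table and every region past 2-fold with at least 20 reads, and genes of the lists only where such a region lay within 3 kb of a start site. Annotation-based start regions, low-read examples and the P4ha1 S value under the siRNA were added after the values had been seen. Promoter bases come from RefSeq (GRCm38.p6). Python 3.11.15, numpy 2.4.6, pandas 2.3.3, scipy 1.17.1 and bedtools 2.31.1 were used, and figures were drawn with matplotlib 3.10.9.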

Additional observations from a re-analysis of the deposited data

Results flagged for a closer look

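The sets differed in direction at the collagen genes, a difference that was not tested because no library has a replicate. Under TGF-b, the collagen median log2 ratio was -0.60 over 59 T regions and 1.199 over 4 S regions. Under siRNA with TGF-b, it was 0.94 over 49 T regions and -0.22 over 5 S regions. The T medians lie at those of all T regions (-0.65 and 0.97), and the S medians rest on 4 and 5 regions. Under the siRNA the S median also lies at that of all S regions (-0.21), so the difference there is that of the whole tables. Under TGF-b it lies above that of all S regions (-0.20), but 3 of the 4 regions had been called under TGF-b only.

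At the Col5a1 place where regions of both sets overlapped, the siRNA value was -1.56 (-2.98 to -0.45) in the S set and 1.13 (-0.42 to 2.94) in the T set. The T interval includes 0 and rests on 4 and 7 reads. The 2 directions were not tested against each other.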

How the results depend on the processing

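Of 249 alternative values, 206 moved by less than their interval (for counts, by at most 1.5 times), 40 moved by more and 3 reversed a call. The interval of a region with an empty library is open on that side. In all, 11 values changed sign, of which 5 stayed within an interval that includes 0, at Col1a2 (TGF-b and siRNA), Col6a3 (siRNA) and Col11a1 (siRNA) in the T set. Centring on all regions gave 15 higher and 15 lower T regions under TGF-b with a median of 0.056, and 11 higher and 17 lower under the siRNA with a median of -0.034. Both medians so reversed by construction. At 1.5-fold, 12 T regions were higher under TGF-b. At 4-fold, T counts were 2 higher and 12 lower under TGF-b and 11 and 3 under the siRNA, and S counts were 1 and 0 under TGF-b with 0 lower under the siRNA. Among regions above the median signal, T counts were 4 and 12, then 11 and 7, and S had 1 higher under TGF-b and 1 lower under the siRNA. With at least 20 reads, T counts were 3 and 8 (median -0.019), then 7 and 6, and S counts were 1 and 0 with 1 lower under the siRNA. Without the authors' line, 0 S regions were lower under TGF-b. With reads of 3 or fewer set to 3, S had 1 higher under TGF-b, 1 lower under the siRNA and 1 raised then lowered.

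By rule, the densest region within 3 kb of a start stood for a gene, or else the nearest region. With 1 kb in place of 3 kb, the T values under TGF-b became 2.38 for Col5a2, 0.22 for Col5a3, 0.24 for Col1a2 (from -0.49) and -1.97 for Col6a3, whose nearest region lay 1892 bp from a start, and under the siRNA -0.98 for Col5a2 and 1.58 for Col5a3, which reversed the intron 1 value of -1.08. Centring gave Col5a3 0.30 and -2.05. It gave 8 of 17 T regions raised then lowered, in place of 2. Of the start-annotated T regions under the siRNA, an alternative chosen after seeing the data, 1 of 6 was above 0 with centring, 1 of 6 without the line and 1 of 5 with at least 20 reads, in place of 2 of 6. The cause was not tested beyond the construction of each alternative. No paired analysis was possible because each group has 1 library, and no library could be left out for the same reason. Without the line, 6 of 59 T regions under TGF-b and 6 of 49 under the siRNA changed whether their interval included 0. Depth limits single regions, and 39% of the collagen T regions under TGF-b had 3 or fewer reads in a library.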
